A study of Mus musculus with 2 samples.

Results

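The EGR and NR4A factors and their companions among the immediate early genes were followed in microglia from the prefrontal cortex of mice. The 10 genes were taken by symbol from the 32589 features that both libraries list: the zinc finger factors Egr1, Egr2 and Egr3, the EGR corepressor Nab2, the nuclear receptors Nr4a1, Nr4a2 and Nr4a3, and the immediate early response genes Ier2, Ier3 and Ier5. All 10 symbols were found, each at 1 feature. Vehicle or corticosterone, the stress hormone of the mouse adrenal, was given to C57BL/6 mice by oral gavage, and the treated mice served as a depression model. After digestion of the tissue with Liberase TL at body temperature, cells low in CD45 and positive for CD11b were sorted and made into GEXSCOPE single-cell libraries. There was 1 library per group. No value below therefore has a replicate check, no test between groups was possible, every interval covers counting error only, and treatment cannot be told apart from library, sort or day. The labels give neither the age, sex and number of the mice nor the dose and length of treatment.

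Immediate early genes are transcribed within minutes of a stimulus, without new protein synthesis, when kinases such as ERK act on SRF, ternary complex factors and CREB already sitting on their promoters. EGR proteins bind GC-rich sites and induce Nab2, which binds them in turn and represses their targets. NR4A receptors are orphan nuclear receptors with no established hormone, controlled mainly by how much is made, and Nr4a1 is required by patrolling monocytes. In microglia these genes are known to respond to inflammatory signals and also to tissue dissociation. Glucocorticoid receptor, the target of corticosterone, is a nuclear receptor of another branch of the same superfamily.

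RefSeq promoter entries, on build GRCm38.p6, were matched for 7 of the 10 genes, namely Egr2, Nab2, Nr4a1, Nr4a2, Nr4a3, Ier3 and Ier5. The sequences of the NR4A family and of Egr2 are shown because they hold letters that match motifs of CREB, SRF or EGR factors. Each runs 5′ to 3′ on the strand of its gene and stops where GENCODE has an exon, so that no transcribed exon is included. Capitals mark half-sites of the cyclic AMP response element (TGACG on either strand), EGR sites (GCGNGGGCG on either strand) and the CArG box of SRF. These motifs do not overlap one another in the stretches shown. The Nr4a1 stretch is chr15:101266596-101266845 on the plus strand, within an intron of a longer transcript, the Nr4a2 stretch is chr2:57124004-57124253 on the minus strand, the Nr4a3 stretch is chr4:48045055-48045152 on the plus strand, and the Egr2 stretch is chr10:67537619-67537868 on the plus strand, within an intron of a longer transcript.
Nr4a1: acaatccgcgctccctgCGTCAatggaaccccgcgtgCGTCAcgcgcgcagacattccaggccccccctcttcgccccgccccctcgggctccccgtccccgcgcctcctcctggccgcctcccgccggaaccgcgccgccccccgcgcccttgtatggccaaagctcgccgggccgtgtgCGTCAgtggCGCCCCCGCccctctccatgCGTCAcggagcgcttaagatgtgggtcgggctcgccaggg
Nr4a2: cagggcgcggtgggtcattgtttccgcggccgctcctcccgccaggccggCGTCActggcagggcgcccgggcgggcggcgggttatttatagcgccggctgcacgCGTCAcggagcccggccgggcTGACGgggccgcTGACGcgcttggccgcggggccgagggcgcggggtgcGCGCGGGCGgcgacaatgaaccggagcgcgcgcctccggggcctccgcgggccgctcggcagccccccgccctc
Nr4a3: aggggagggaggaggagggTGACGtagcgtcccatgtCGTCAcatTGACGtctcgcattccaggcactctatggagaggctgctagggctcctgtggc
Egr2: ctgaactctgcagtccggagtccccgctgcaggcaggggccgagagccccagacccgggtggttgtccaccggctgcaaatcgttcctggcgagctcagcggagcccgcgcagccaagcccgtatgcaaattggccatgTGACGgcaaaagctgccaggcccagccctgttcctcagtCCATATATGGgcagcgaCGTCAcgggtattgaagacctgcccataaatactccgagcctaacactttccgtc

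In GENCODE M21, on build GRCm38, Nr4a1 lies at chr15:101254269-101274795, Nr4a2 at chr2:57106830-57124003, Nr4a3 at chr4:48045153-48086447, Egr2 at chr10:67535475-67542188 and Egr3 at chr14:70077203-70082614. Ier2 lies at chr8:84661331-84662852, Ier3 at chr17:35821684-35822923 and Ier5 at chr1:155096361-155099636. All 10 genes are protein-coding.

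The half-site occurred 4 times in the 250 bases before the RefSeq start of Nr4a1 and 4 times before that of Nr4a2. The Nr4a3 window also held 4, of which 3 lie in the stretch shown and the other beyond the GENCODE start of the gene. At least 1 was present in 17.8% of 32841 promoter windows of the same length. An EGR site lay upstream of Nr4a1 and of Nr4a2, against 4.70% of all windows. Of the 7 genes matched, Egr2 alone had a CArG box, which 1.47% of windows hold. Egr2 had it in 4 of 5 listed windows, which overlap in part, and 3 of those 4 also held 2 half-sites. A kappaB site, the motif of NF-kappaB, was found in Ier3 and in another Egr2 window, against 7.25% of all windows. No window of these genes held the full element TGACGTCA, the NR4A monomer site AAAGGTCA, the AP-1 site TGANTCA or the palindromic glucocorticoid response element. These were present in 1.55%, 1.34% and 6.75% of all windows, and the last in 0.00913%. These are matches of letters and were not tested as sites of binding.

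After filtering, the vehicle library held 10500 cells and 49325067 UMIs, molecular tags that count each captured transcript a single time, and the corticosterone library held 17883 cells and 85103539 UMIs. The median cell had 3220.5 and 3961 UMIs and 2.67% and 4.20% mitochondrial UMIs, and 104 barcode sequences occurred in both libraries. Clusters that carry microglial markers held 7977 vehicle and 15179 corticosterone cells, and all 11 markers listed for microglia, among them P2ry12, Tmem119 and Sall1, were detected in both, at a summed 34709 and 30523 UMIs per 1000000 (CPM). P2ry12 itself was 1.74-fold lower in corticosterone, at 6132 and 3520 CPM. The other named clusters resembled border-associated macrophages (1011 and 799 cells), neutrophils (476 and 423), red blood cells (120 and 126), monocytes (34 and 63) and endothelium (38 and 24). None of the 10 genes, nor any other immediate early or heat shock gene on the lists, was used to form the clusters. CPM below are sums over the cells of a class per 1000000 UMIs of that sum. UMIs are counted per molecule and not scaled by transcript length.

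Among the EGR factors, Egr1 was by far the most abundant and was slightly lower under corticosterone. Its level in microglia-like cells was 6791 CPM (95% interval 6763 to 6819) in vehicle and 5435 (5418 to 5452) in corticosterone, a log2 ratio of -0.32. Egr2, which shares the DNA motif of Egr1 and is known for its role in myeloid differentiation and myelination, stood at 314 CPM (308 to 321) and 321.5 (317 to 326). Its log2 ratio of 0.03 (-0.00 to 0.07) did not exceed counting error. Scaling by TMM or DESeq2 factors gave 0.12 and 0.14, while moving the median of all genes to 0.08 and 0.10. Egr3, the family member best known from lymphocytes and muscle spindles, was at 99.6 CPM (96.2 to 103) in vehicle and 59.8 (58.0 to 61.7) in corticosterone, 1.66-fold lower. The 3 factors thus kept the same order of abundance in both libraries while their ratios differed, Egr3 having the lowest and Egr2 the highest. Nab2 was at 27.3 CPM (25.5 to 29.1) and 41.1 (39.6 to 42.6), 1.504-fold higher. Nab2 overlaps Gm16229, Nemp1 and Stat6 on the opposite strand at chr10:127660918-127668568, and whether counting used strand is not given in the sources used here, so its reads could include theirs. Nab1, the related corepressor, had 19.7 and 24.8 CPM, a log2 ratio of 0.33 (0.20 to 0.46).

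Among the 9 genes at 5 CPM or more, Nr4a1 had the lowest log2 ratio. It was at 326 CPM (320 to 333) in vehicle, from 10764 UMIs, and at 114 (112 to 117) in corticosterone, from 8134 UMIs, 2.85-fold lower with a log2 ratio of -1.51 (-1.55 to -1.47). Nr4a2, known for its part in dopamine neurons, had 7.70 CPM (6.79 to 8.71) and 7.82 (7.18 to 8.50), and the interval of its log2 ratio (0.02, -0.20 to 0.24) spanned 0. Nr4a3 was at the edge of detection, with 74 UMIs in vehicle and 72 in corticosterone, or 2.24 CPM (1.76 to 2.82) and 1.01 (0.79 to 1.28). Its log2 ratio was -1.15 (-1.64 to -0.66), and -1.83 as the mean over cells of per-cell CPM. It lay below the minimum of 5 CPM for the counts that follow. All 3 receptors have half-sites of the cyclic AMP response element in the promoters shown above. Nr4a1 and the sparsely counted Nr4a3 had ratios below 0, while Nr4a2 had no clear direction. A part of the half-sites in these ratios was not tested.

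The IER genes, which share a name and not a protein family, divided as well. Ier3, an NF-kappaB target known for effects on cell survival, was at 1671 CPM (1657 to 1685) in vehicle and 2629 (2617 to 2641) in corticosterone, 1.57-fold higher. Ier2, a nuclear protein of growth factor responses, was at 1852 CPM (1837 to 1866.5) and 2232.5 (2221.5 to 2243.5), a log2 ratio of 0.27. Ier5, known as a partner of heat shock factor, was at 2005.5 CPM (1990.3 to 2021) and 1638 (1628 to 1647), a log2 ratio of -0.29. Ier3 and Ier5 thus exchanged places between the libraries: Ier5 led the 3 genes in vehicle and Ier3 in corticosterone, with Ier2 between them in both.

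Of the 9 genes at 5 CPM or more, 2 were higher by at least 1.5-fold (Ier3 and Nab2, the latter just past that line), where 5.87% of 9675 genes were. Another 2 were lower by as much (Nr4a1 and Egr3), against 6.45% of all genes. Their median log2 ratio was 0.02 and that of all genes -0.01, so that no shift common to the genes was seen. Past 2-fold there was 1 gene, Nr4a1, with 2.06% of all genes lower by that much, and none was higher, against 2.21%.

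**Figure D1:**
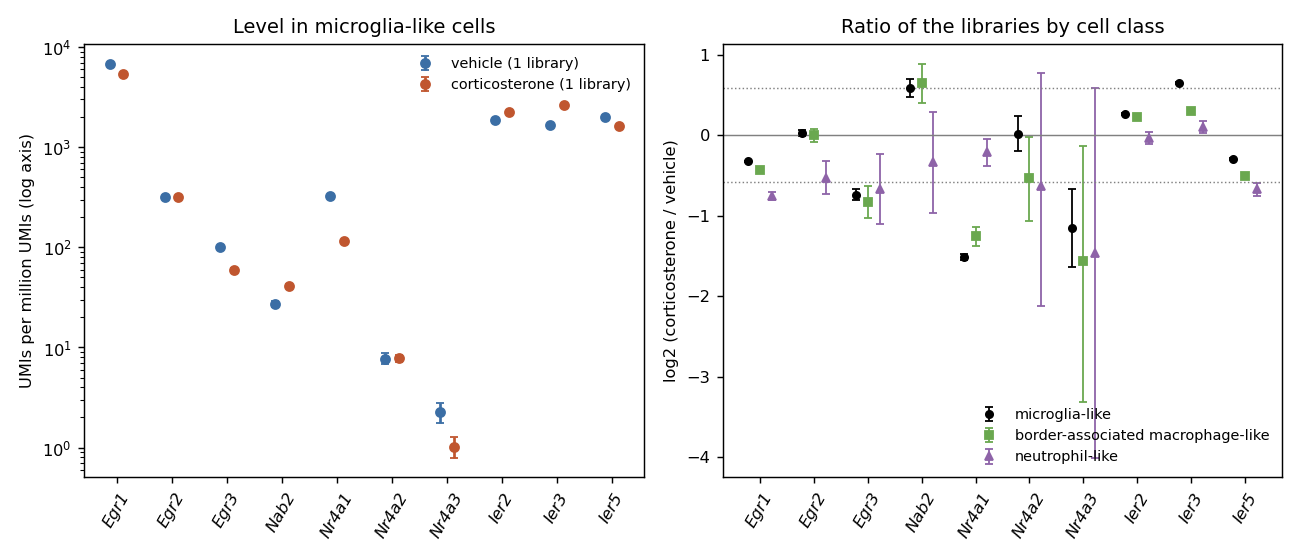
The left panel plots the CPM of each gene in microglia-like cells of the vehicle and corticosterone libraries on a log axis, and the right panel the log2 ratio of corticosterone over vehicle in microglia-like, border-associated macrophage-like and neutrophil-like cells, with bars for 95% counting intervals and dotted lines at 1.5-fold. Nr4a1 is lowest among the well-counted genes in microglia-like cells at -1.51 and in macrophage-like cells at -1.25, but at -0.21 in neutrophil-like cells.

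The libraries differed in depth and mitochondrial share, so the genes past 1.5-fold were read again within 4 bins of each. The bins hold near-equal numbers of cells and were cut within each library, so they are not matched between libraries. Median UMIs ran from 1454.5 to 6473 over the vehicle bins and from 2594 to 7247 over the corticosterone bins. Median mitochondrial shares ran from 1.27 to 4.12% and from 2.58 to 5.81%. By depth, Nr4a1 ran from 271 to 352 CPM over the 4 vehicle bins and from 88.7 to 127.5 over the 4 corticosterone bins. By mitochondrial share it ran from 313 to 344 and from 105 to 122. Egr3 was at 86.1 CPM or more in every vehicle bin and at 67.5 or less in every corticosterone bin, under either split. Ier3 had at most 1735 CPM in a vehicle bin and at least 2277 in a corticosterone bin, and Nab2 at most 31.2 and at least 38.3. In none of these 4 genes did the bins of the libraries overlap. The genes were picked for their ratio over these same cells, so the lack of overlap is a description. The share of other genes past 1.5-fold whose bins also lie apart was not computed. The part of depth or mitochondrial share in the ratios was not tested. For Egr3 the gap narrowed with depth, from 122.5 against 44.7 CPM in the shallowest bin to 86.1 against 61.3 in the deepest.

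**Figure D2:**
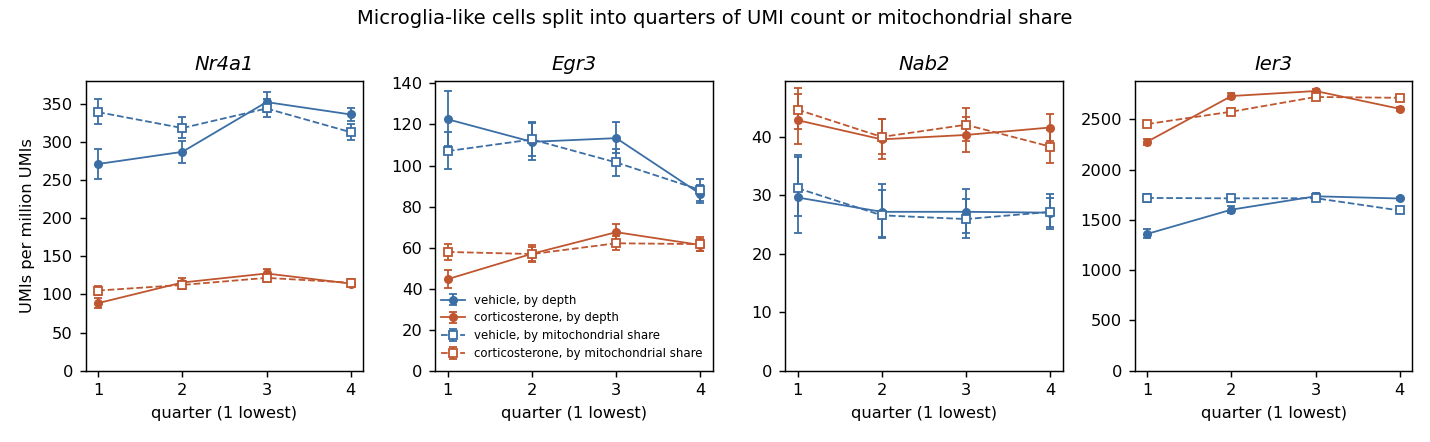
Each panel plots the CPM of 1 gene in microglia-like cells, divided within their library into 4 bins of UMI count (filled circles) or of mitochondrial share (open squares), with 95% counting intervals. Nr4a1 stays between 271 and 352 in vehicle and between 88.7 and 127.5 in corticosterone.

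The difference in Nr4a1 was seen in each microglial cluster of at least 50 cells per library. Its log2 ratio was -1.44 in cluster 0, the main one, -1.44 in cluster 1, -1.66 in cluster 5, which carries interferon-induced genes, -1.63 (-2.14 to -1.14) in cluster 10, led by Lpl, Nes and Itgax, and -2.32 (-2.65 to -2.00) in cluster 2. Cluster 2 held the shallowest microglia, with medians of 1081.5 and 2387 UMIs. There Egr1 was at 4842 and 2972 CPM, 0.713 and 0.547 times its level in all microglia-like cells, and Nr4a1 at 178 and 35.6 CPM, 0.544 and 0.311 times. The 4 microglial markers Sall1, P2ry12, Tmem119 and Siglech had a median of 0.988 and 1.07 times in the same cells, and Nab2 1.22 (0.876 to 1.64) and 1.06 (0.901 to 1.24) times. Egr2 was at 0.588 and 0.418 times and Egr3 at 0.777 and 0.233 times, while Nr4a3, from 9 and 6 UMIs, was at 3.17 (1.45 to 6.01) and 1.69 (0.620 to 3.68) times. The part of depth in these levels was not tested.

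Nab2 was highest in cluster 10, at 139 CPM (104 to 182) over 73 vehicle cells and 96.7 (75.3 to 122) over 102 corticosterone cells, 5.09 and 2.36 times the microglial level. Its partner Egr1 was not raised there (0.861 and 0.920 times), and neither was Nr4a1 (0.745 and 0.686 times). In this cluster the log2 ratio of Nab2 between libraries was -0.52 (-1.06 to 0.02), against 0.59 over all microglia-like cells. Egr3 had its highest level in cluster 3, cells of low UMI count that were left unnamed, at 148 CPM (130 to 169) in vehicle and 129 (116 to 144) in corticosterone, while Egr1 there was at 0.787 and 0.715 times its microglial level. These levels describe clusters formed on the same cells.

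Every other class also carried microglial marker RNA. Levels are therefore given beside those of the markers. In macrophage-like cells, the 4 microglial markers were at 0.812 times their microglial level in vehicle and 0.653 times in corticosterone, and Egr1 at 0.841 and 0.778 times. Egr2 was at 0.971 and 0.952 times, Ier2 at 0.926 and 0.903 and Nab2 at 0.995 and 1.04, all above the markers. Apart from Nab2 and Nr4a2, the genes were lower there than in microglia-like cells in both libraries, the sparsely counted Nr4a3 among them. The share of all genes that were lower there was not computed, so this is not read as particular to the genes. Between the libraries, macrophage-like cells gave a log2 ratio of -1.25 (-1.37 to -1.14) for Nr4a1, -0.83 (-1.03 to -0.63) for Egr3, -0.43 for Egr1, -0.50 for Ier5, 0.65 (0.41 to 0.89) for Nab2 and 0.30 for Ier3. Of 9 genes tested, 2 were lower by 1.5-fold, against 7.04% of all genes, and 1 was higher, against 7.37%. The part of microglial RNA in these values was not tested.

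In neutrophil-like cells the markers lay at 0.574 and 0.383 times the microglial level, and Egr1 lay close to them, at 0.583 (0.571 to 0.595) and 0.433 (0.422 to 0.444) times. Ier2 was at 0.730 and 0.593 times. Nr4a1 was at 250 CPM (231 to 271) in vehicle and 216 (198 to 235) in corticosterone, which is 0.767 and 1.89 (1.73 to 2.06) times the microglial level. The corticosterone value is 4.94 times that of the markers. In this class the log2 ratio of Nr4a1 was -0.21 (-0.38 to -0.04), against -1.51 in microglia-like cells. The class joins a cluster led by Cxcr2 and Retnlg (212 and 278 cells) and another led by Camp and Ngp (264 and 145 cells), and Nr4a1 was at 320 and 285 CPM in the former and at 162 and 140 in the latter. The parts of microglial RNA and of the mix of these clusters in the Nr4a1 values were not tested. Of 8 genes tested in neutrophil-like cells, 3 were lower by 1.5-fold, with 19.9% of all genes lower by that much, and none was higher, against 8.91%.

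Monocyte-like cells, only 34 and 63 in number, had the highest Nr4a1 of any class, 539 CPM (438 to 656) from 99 UMIs in vehicle and 781 (708 to 860) from 417 UMIs in corticosterone. This was 1.65 (1.34 to 2.01) and 6.83 (6.19 to 7.52) times the microglial level, while microglial markers stood at 0.575 and 0.248 times and Egr1 at 0.482 and 0.288 times. Nr4a2 had 6 and 16 UMIs in these cells, 4.24 (1.56 to 9.23) and 3.83 (2.191 to 6.22) times its microglial level. The log2 ratio of Nr4a1 between libraries was 0.53 (0.22 to 0.87), opposite in sign to microglia-like cells, and the difference was not tested. The 6 monocyte markers summed to 5070 CPM in vehicle and 22188 in corticosterone, so the level of monocyte marker RNA in this class also differed between libraries. The part of that difference in the ratio was not tested.

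**Figure D3:**
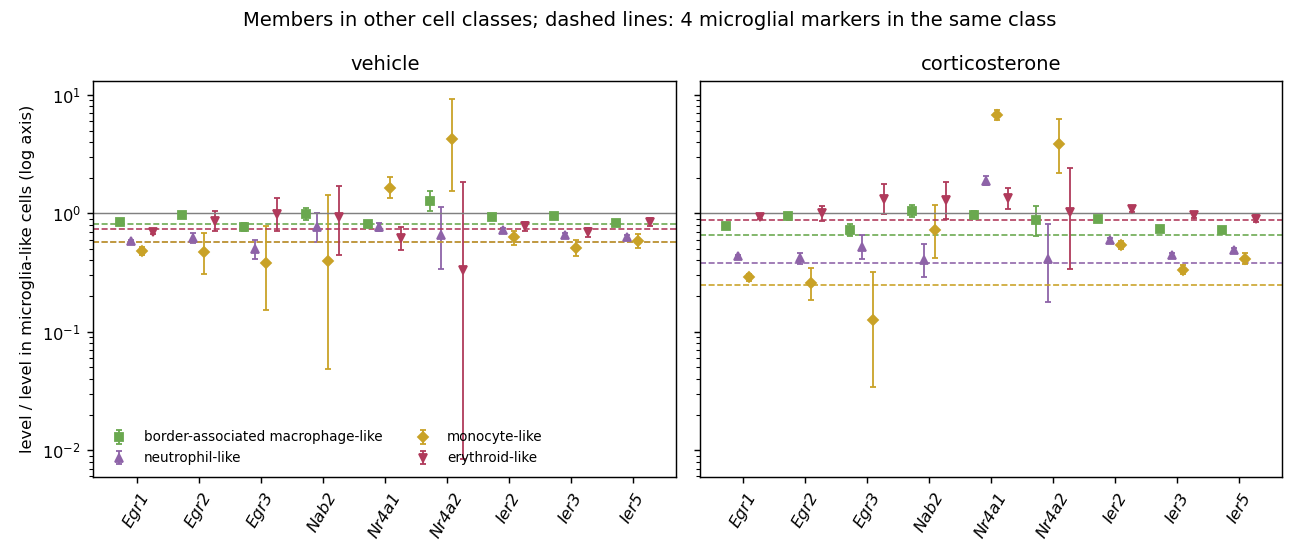
Points give the level of 9 genes in border-associated macrophage-like, neutrophil-like, monocyte-like and erythroid-like cells over that in microglia-like cells of the same library, on a log axis with 95% counting intervals, and dashed lines the median of 4 microglial markers in the same class. Nr4a1 in corticosterone lies at 6.83 in monocyte-like and 1.89 in neutrophil-like cells.

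To compare the share of cells in which a gene was seen, each cell was thinned to 1000 UMIs, which kept 7361 vehicle microglia-like cells (616 were shallower and left out) and 15087 corticosterone cells (92 left out). Egr1 was then detected in 98.6% (98.3 to 98.9%) and 92.9% (92.5 to 93.3%) of cells, Nr4a1 in 21.7% (20.8 to 22.7%) and 8.14% (7.71 to 8.59%), and Egr3 in 9.41% (8.76 to 10.1%) and 5.04% (4.70 to 5.41%). Ier3 was detected in 64.0% and 74.6%, Ier2 in 74.3% and 77.1%, Ier5 in 82.8% and 75.5%, Egr2 in 24.1% and 23.3%, Nab2 in 2.70% and 4.07%, Nr4a2 in 0.761% and 0.829% and Nr4a3 in 0.217% and 0.139%. Without thinning, Nr4a1 was in 42.4% of vehicle and 21.4% of corticosterone cells and Egr2 in 51.7% and 56.0%.

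Red cell-like barcodes should lack microglial transcripts, yet after thinning 91.2% of 102 vehicle and 91.1% of 124 corticosterone barcodes held Egr1, 10.8% (5.51 to 18.5%) and 12.1% (6.93 to 19.2%) held Nr4a1, and 89.2% and 92.7% held P2ry12. The median barcode of this class held 2895 UMIs in vehicle and 3994 in corticosterone, and the median microglia-like cell 3190 and 4002. In vehicle the shares of Egr1, Nr4a1, Ier2, Ier3 and Ier5 in microglia-like cells lay above the interval of these barcodes, and the other 5 genes lay within it. In corticosterone all 10 shares lay within it. So did the microglial marker P2ry12 in corticosterone, at 94.5% of microglia-like cells, and the barcodes carried microglial markers at 0.737 and 0.884 times the microglial level. These barcodes thus do not separate background from expression, and no difference between libraries is drawn from the shares.

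Detection of the genes in the same cell was compared with what their separate shares would give. Over the 45 pairs, the number of thinned cells with both genes exceeded the product of their separate shares in 33 pairs in vehicle and in 37 in corticosterone, with a median ratio of observed to expected of 1.02 and 1.06. Among 21 pairs of microglial markers it did so in 15 and 21, among 78 pairs of other immediate early genes in 68 and 71, and among 55 pairs of heat shock genes in 33 and 36, so an excess in most pairs was not particular to the genes. Egr3 and Nr4a1 met in 201 vehicle cells where 150 would be expected, a ratio of 1.34, and in 127 corticosterone cells where 61.9 would be expected, a ratio of 2.05. Egr2 and Egr3 gave 1.40 and 1.48, and Egr2 and Nr4a1 1.26 and 1.46. The ratio of Nab2 was 0.999 and 1.01 with Egr1, 1.11 and 0.981 with Egr2, and 1.23 and 0.807 with Egr3, the last from 23 and 25 cells. Pairs with Egr1 lie near 1 because nearly all cells hold it, and there the odds ratio shows more, at 3.81 and 4.48 with Nr4a1 and 3.07 and 4.51 with Ier2. A ratio of observed to expected can rise higher where shares are lower. Those of Nr4a1 were 21.7% in vehicle and 8.14% in corticosterone, so its ratios are not compared between libraries. Cells of 1 library are not replicates, so all these ratios are descriptions.

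Computed within microglial sub-clusters, the ratio of Egr3 and Nr4a1 was 1.33 and 1.99, and within the depth bins 1.345 and 1.99. Pairs of 7 microglial markers gave a median ratio of 1.003 in vehicle and 1.01 in corticosterone, with the highest at 1.03 and 1.09. Pairs of other immediate early genes had medians of 1.005 and 1.02 and reached 1.22 and 1.88, both for Klf2 and Klf4. Pairs of heat shock genes had medians of 1.01 and 1.02 and reached 2.27 and 3.08, above the highest pair of the 10 genes at 1.98 and 2.83, which in each library includes an NR4A gene of few UMIs.

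**Figure D4:**
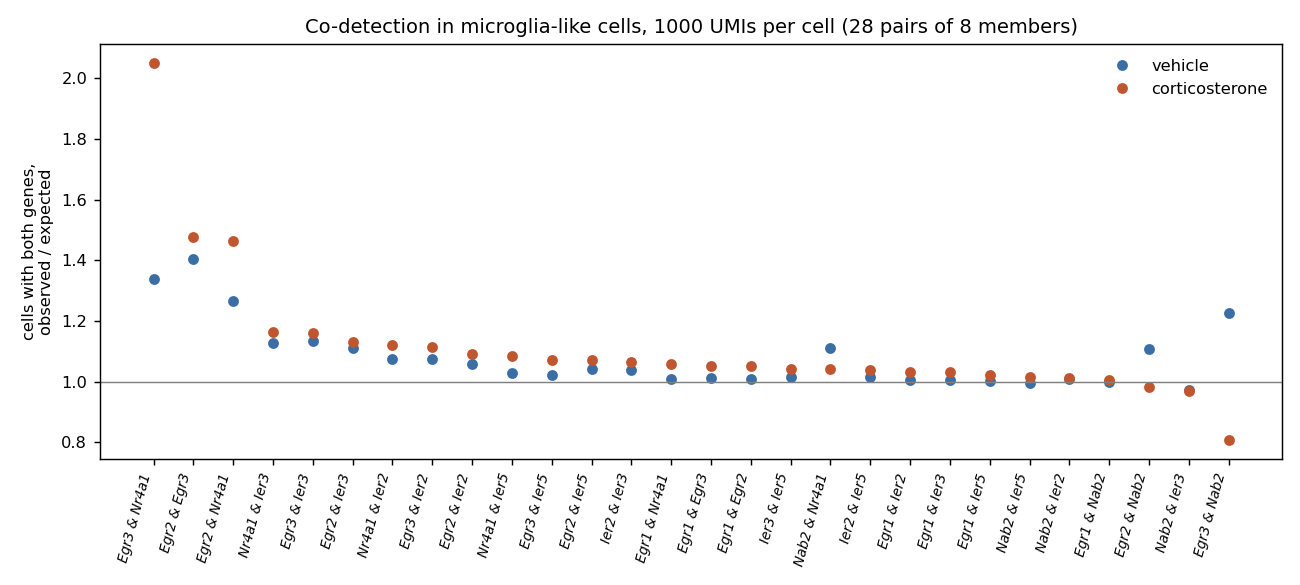
For 28 pairs of 8 genes, the points give the number of microglia-like cells with both genes over the number expected from their separate shares, after thinning to 1000 UMIs, in vehicle and corticosterone. Egr3 and Nr4a1 reach 2.05 in corticosterone and 1.34 in vehicle, and pairs of Nab2 with Egr1 or Ier2 lie at about 1. How high a ratio can rise depends on the shares, which differ between libraries.

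Counted over all 10 genes, a thinned cell held on average 3.79 of them in vehicle and 3.62 in corticosterone. The variance over cells was 1.39 and 1.501, where independent detection of the same shares would give 1.05 and 0.967. Both ends of the distribution were filled: 12 vehicle cells (0.163%, 0.084 to 0.285%) and 201 corticosterone cells (1.33%, 1.16 to 1.53%) held none of the genes, against 0.0114% and 0.064% under independence. At the other end, 26.3% and 22.0% of cells held 5 or more, against 23.2% and 16.7%. This excess depended on depth. Thinned to 2000 UMIs, 54.7% of vehicle and 45.7% of corticosterone cells held 5 or more, against 55.2% and 43.8% under independence. The variance there was 1.30 and 1.24, against 0.959 and 0.838.

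**Figure D5:**
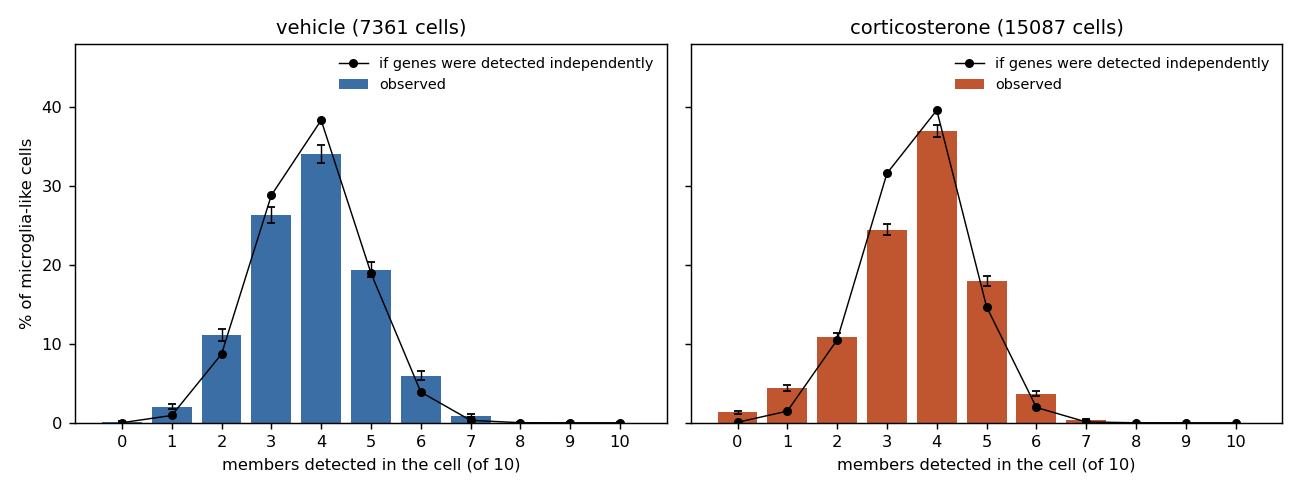
Bars give the share of microglia-like cells, thinned to 1000 UMIs, in which 0 to 10 of the genes were detected, with exact binomial 95% intervals, and black points the shares if the genes were detected independently. In both libraries cells with 3 or 4 genes fall below the points and cells with 0, 1 or 6 lie above them.

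The spread of counts over cells was read as variance over mean at 1000 UMIs, which tends to 1 at low means. Only abundant genes are therefore given, beside a marker. Levels of gene and marker were not matched and lay further apart in corticosterone, and the part of level in the spread was not tested. Egr1, at 6.88 and 5.35 UMIs per cell, had 1.92 and 2.51, and P2ry12, at 6.02 and 3.55, had 1.47 in both libraries. Ier3 had 2.37 and 2.87 and Ier2 1.73 and 1.99, and the marker Tmem119, at 1.79 and 2.08 UMIs per cell, had 1.17 and 1.18. Ier5, at 2.03 and 1.66 UMIs per cell, had only 1.29 and 1.36, so a wider spread was not shared by all abundant members. Egr1 reached 24 UMIs in a vehicle cell and 29 in a corticosterone cell, and Ier3 18 and 21.

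Among 6590 other genes, those whose counts per thinned cell correlated best with the number of the 10 genes detected were Nfkbia, an inhibitor of NF-kappaB (Pearson r 0.26 over 7361 vehicle and 0.38 over 15087 corticosterone cells), Zfp36, which destabilises cytokine mRNAs (0.24 and 0.39), and H3f3b, a replacement histone (0.23 and 0.31). These are weak correlations between cells that share a library and a fixed total, and they are given as a description. Genes were ranked by the lower of their correlations in the libraries, and another ranking could name other genes. The log2 ratio of the 3 genes between libraries was -0.17, -0.27 and -0.52.

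Other genes of the pathway were read from lists chosen with earlier results of these data known. Of 24 other immediate early genes tested, 7 were lower by 1.5-fold, against 6.45% of all genes, and 1 was higher, against 5.87%. Their median log2 ratio was -0.26 against -0.01 for all genes. The lowest was Klf2, a factor of quiescent endothelium and macrophages, at 476 and 159 CPM, a log2 ratio of -1.58 (-1.62 to -1.55). The highest at 20 CPM or more was Dusp1, a phosphatase of MAP kinases and a known glucocorticoid target, at 0.45 (0.44 to 0.46). Fosl2, named after its value was seen, was the gene past 1.5-fold upward, at 8.04 and 12.2 CPM. Fos and Jun, the partners in AP-1, also named after their values were seen, had ratios of -0.18 and -0.25. These had the sign of Egr1, at -0.32, and were smaller in size. The upstream kinases and factors held no gene past 1.5-fold among 19 tested, where 6.45% of all genes were lower and 5.87% higher. These kinases and factors ran from -0.43 for Mef2c to 0.19 for Map2k1, the kinase of ERK.

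Of 9 described EGR1 targets tested, 7 had a ratio above 0, as had 48.5% of all genes. By 1.5-fold, 2 were higher, against 5.87% of all genes, and none was lower, against 6.45%. Their median was 0.32, and Egr1 itself was at -0.32. The highest at 20 CPM or more was Pdgfa, a growth factor chain, at 32.0 and 52.2 CPM with a log2 ratio of 0.70 (0.61 to 0.80), and the lowest was Tgfb1 at -0.14 (-0.17 to -0.10). F3, tissue factor, was the other one past 1.5-fold, at 3.61 and 10.5 CPM, and is named after its value was seen. Heat shock genes are read here because dissociation at body temperature is known to induce them. Of 10 tested, 2 were higher by 1.5-fold, against 5.87% of all genes, and 1 was lower, against 6.45%, with a median of 0.39. Those at 20 CPM or more ran from Dnajb1 at -0.63 (-0.66 to -0.59) to Hspa8 at 0.65 (0.64 to 0.67). The other immediate early genes and the heat shock genes had medians of opposite sign, -0.26 and 0.39. That of the 9 members tested, immediate early genes as well, was 0.02. The part of dissociation in any of these values was not tested.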

How the data were processed

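The deposited matrices hold unnormalised UMI counts of each gene in each barcode. Whole numbers and unequal cell totals show that these counts were not normalised by the authors. Per the submitters' processing notes, bcl2fastq 2.19 and build GRCm38 were used; aligner, annotation and cell calling are not given in the sources used here. Each file's group was taken from its sample record, since file names use other words than the labels. Feature and barcode lists give other information, names only, as deposited.

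Cells with at least 500 UMIs, 300 genes and at most 20% mitochondrial UMIs were kept. Scrublet, run in scanpy 1.11.5, marked 0 cells, so it was taken not to have worked and no doublet was removed. Clustering, with scikit-learn 1.9.0, igraph 0.11.9 and leidenalg 0.10.2, used genes centred within each library. Settings were 2000 variable genes without the listed early and heat shock genes, 30 components, 15 neighbours and Leiden resolution 0.5. Centring was chosen after the data were seen, because uncentred clusters followed the libraries. A cluster was named from at least 3 markers at 2 times their level elsewhere, and as microglia where its 11 markers had a geometric mean of at least 0.5 times that of all cells. Cluster 9, with more leading genes of another class, and cluster 3, at 0.333 times the median UMI count of its libraries and with no marker among its leading genes, stayed unnamed.

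CPM are sums per class per 1000000 UMIs. Ratios carry exact conditional intervals at 95%, levels exact Poisson and shares exact Clopper-Pearson intervals, for counting error only. Genes at a mean of 5 CPM were counted past 1.5-fold. Named genes were the 10 members, the highest and lowest of each list at 20 CPM, and the 3 genes that best follow the number of members per cell. Fos, Jun, Fosl2 and F3 fall outside this rule. Positions are from GENCODE M21 and promoters from RefSeq. The ratios, intervals, thinning and co-detection were tested on simulated counts, with no variation between replicate libraries and no background RNA. Those simulations check the computation only. R 4.3.3 with edgeR 4.0.16 and DESeq2 1.42.0 gave scaling factors only. The members and lists were chosen with earlier results of these data known.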

Additional observations from a re-analysis of the deposited data

Results flagged for a closer look

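The log2 ratio of corticosterone over vehicle for Nr4a1 was 0.53 (0.22 to 0.87) in monocyte-like cells and -1.51 in microglia-like cells, with intervals on opposite sides of 0. It rests on 99 vehicle and 417 corticosterone UMIs from 34 and 63 cells, and the difference between classes was not tested.

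Egr1 had a log2 ratio of 0.0884 (0.00 to 0.17) in red cell-like barcodes, at 4724.5 and 5023 CPM, and -0.32 in microglia-like cells. The microglial markers of these barcodes stood at 0.737 times the microglial level in vehicle and 0.884 times in corticosterone. That difference was not tested either.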

How the results depend on the processing

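No paired analysis was possible because each group has 1 library. The number of genes higher by 1.5-fold in microglia-like cells, 2 as reported, was 1 with no cell filter, at Leiden resolution 0.3 and with the mean over cells of per-cell CPM, where Nab2 dropped below the line, and 0 past 2-fold. The number lower, 2 as reported, was 1 past 2-fold and 3 with no minimum CPM, which adds Nr4a3. The mean number of genes detected per cell, a sum of shares from which no library difference is drawn, gave corticosterone minus vehicle values of -0.17 after thinning to 1000 UMIs, -0.26 at 2000 UMIs and -0.0566 without thinning. Over 16 alternatives, the log2 ratio of Nr4a1 stayed between -1.52 and -1.34, that of Egr3 between -0.97 and -0.63, that of Ier3 between 0.63 and 0.76 and that of Nab2 between 0.56 and 0.70. Nr4a2 ranged from -0.06 to 0.13, Egr2 from 0.01 to 0.14 and Nr4a3 from -1.83 to -0.88. Scaling by edgeR's TMM or by DESeq2's size factors moved the median of all genes to 0.08 and 0.10. The DESeq2 factor was set by genes with few UMIs, and with genes at 5 CPM, a setting chosen after seeing the data as were uncentred clustering and the addition of cluster 3, the median was 0.00. Nr4a2 and Nr4a3 are limited by depth, with 72 to 556 UMIs per library in microglia-like cells.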
